A study of Homo sapiens with 16 samples.

Results

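2-deoxyglucose (2DG) in Activin A medium was compared with the same medium without it, in 4 libraries of the 16 in the series. They were chosen by their labels alone, and all 16714 genes that passed a minimum value entered the comparison. H1 is an established human embryonic stem cell line of wild-type genotype, and the cells spent 24 h in E7, a culture medium that is E8 without TGFb, with or without a ligand. The group E7+ActivinA+2DG had E7 with Activin A at 100 ng/mL and 2DG at 3 mM, and the group E7+ActivinA had E7 with Activin A at 100 ng/mL and no 2DG, with 2 libraries each. The other 12 libraries, 2 for each group, were E7+2DG and E7, E7+TGFb+2DG and E7+TGFb, and E7+NODAL+2DG and E7+NODAL. In these groups 2DG was also at 3 mM and NODAL at 100 ng/mL, while TGFb was at a far lower dose. Polyadenylated RNA was sequenced, and values are normalised reads: the reads of each gene, scaled in each library by 1 size factor. All of the cells came from 1 line, and the labels do not say whether replicates were separate cultures, so p-values measure only the spread between these samples, which may be technical. In bulk samples such as these, fewer cells of a type and less RNA per cell cannot be told apart.

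Activin A is a secreted ligand that binds activin receptors and activates SMAD2 and SMAD3, which keep NODAL, LEFTY1 and LEFTY2 transcribed in human pluripotent cells. 2DG enters cells through glucose transporters and is phosphorylated by hexokinase, but the product cannot pass through glycolysis. It also interferes with the addition of mannose-containing glycans to proteins in the endoplasmic reticulum (ER), which can load the ER with unfolded protein. Phosphorylated hexoses switch on TXNIP and ARRDC4 through the transcription factors MondoA and MLX. ATF4 is translated when the initiation factor eIF2 is phosphorylated under ER or amino acid stress, and drives genes of amino acid transport and synthesis.

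Recovered reads were 16880069 and 14963071 in replicates 1 and 2 of E7+ActivinA+2DG, and 17630329 and 17022118 in replicates 1 and 2 of E7+ActivinA. Markers of H1 cells were high in all 4 libraries, and the lowest value of the 10 markers was 3035 normalised reads, for CD9. The 2 groups were the least alike within themselves of the 8. Relative to counting noise alone, which would give about 1, the variance between replicates was 14.7 in E7+ActivinA+2DG and 53.3 in E7+ActivinA, and it was 1.58 to 10 in the other 6 groups. Among genes averaging at least 100, 97 of 10664 differed by 1 or more on the log2 scale between the replicates of E7+ActivinA+2DG, and 450 of 10649 between those of E7+ActivinA. Across 16714 genes the log2 values of replicate 1 of E7+ActivinA+2DG had a Pearson r of 0.985 with its own replicate and of 0.988 with replicate 2 of E7+ActivinA. Genes share the library and are not replicates, so no p is given for that r. Because of this spread each group had its own weight in the fit, and values are given library by library.

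2DG raised 29 genes in Activin A medium, which was 0.174% of the 16714 tested, and lowered 0 (0%). The model was limma on log2 of the value plus 1, with Benjamini-Hochberg adjustment and a threshold of 0.05 on the adjusted p. At an unadjusted p under 0.05 there were 716 genes higher and 341 lower. The rise included TXNIP and ARRDC4, the stress factors DDIT3 and ATF5, amino acid transporters and enzymes, and the secreted factors INHBE, STC2 and VEGFA. The count depended on how the unequal spread was modelled, and on simulated data the weights behind it gave more false calls than the threshold names. The simulation drew each gene independently, so the rate of false calls in these data is not known from it. Weights estimated from genes averaging at least 500, an alternative added after the data were seen, left 6 calls: TXNIP, INHBE, ARRDC4, FAM129A, SLC7A11 and STC2. Equal weights gave 284 calls, 247 higher and 37 lower, edgeR gave 265 higher and 31 lower, and DESeq2 gave 451 higher and 151 lower. All 29 genes were called by edgeR and by DESeq2.

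The plot of the 29 genes by library shows that the 4 libraries kept the same order of groups for each of them.

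**Figure D1:**
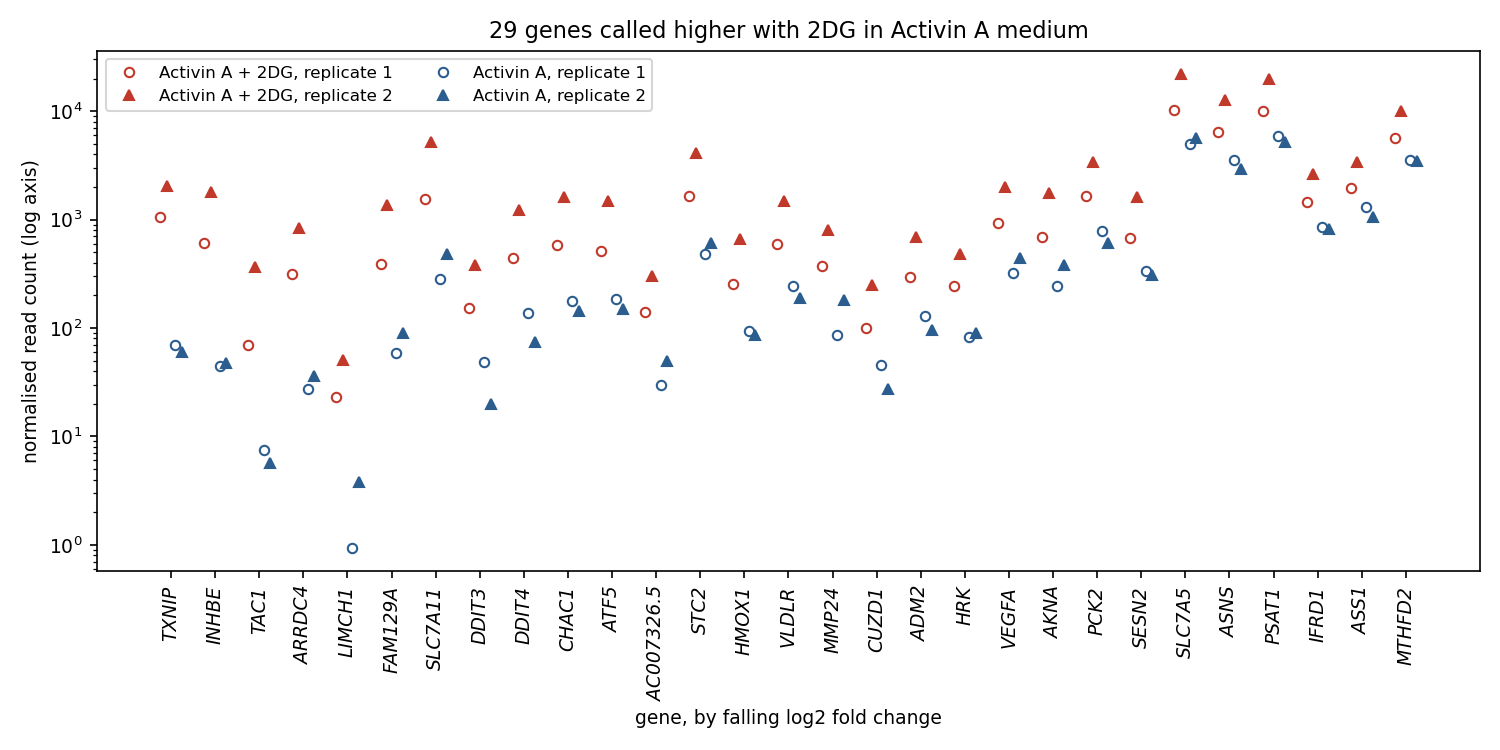
Normalised read count on a log axis for the 29 genes called higher, in falling order of log2 fold change, with a point for each library. Red points (Activin A with 2DG) lie above blue points (Activin A alone) for every gene, which the rule for calling favours, and the red triangle of replicate 2 lies above the red circle of replicate 1 for 29 of 29.

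The glucose-sensing genes TXNIP and ARRDC4 rose. TXNIP, an arrestin-like protein that limits glucose uptake and inhibits thioredoxin, had 1060.1 and 2034 normalised reads in replicates 1 and 2 of E7+ActivinA+2DG, against 69.4 and 60.3 in E7+ActivinA. Its log2 fold change was 4.48 (SE 0.33, limma adjusted p = 5.1e-07). ARRDC4, a relative of TXNIP in the same family of arrestin-domain proteins, had 314 and 841 with 2DG, against 27.2 and 35.8 without it (log2 4.0, SE 0.42, adjusted p = 6.3e-05). For both genes each 2DG library lay far above each control, and replicate 2 was the higher of the 2DG pair. Of the 7 members tested of the list of MondoA targets and partners, these 2 were called, against 0.174% of all genes tested. Both 2DG libraries lay above both controls for 3 members and below both for 1, against 17.2% and 16.6% of all genes tested. ARRDC3 had 444 and 654 with 2DG, against 318 and 381 without it, and was not called (adjusted p = 0.74). The median log2 difference of the 7 was 0.63, and that of all genes tested was 0.

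TXNIP lies at chr1:145992435-145996600 on the minus strand (GRCh38, GENCODE 29). Its promoter is shown because it holds a pair of E-box-like half-sites, CACGNG, spaced by 5 bases, which is the arrangement known as a carbohydrate response element. Half-sites spaced in this way were searched on both strands in the 250 bases before the start. This motif was added after the values were seen. It stood in 12 of the 11105 promoters of genes tested (0.108%). The sequence is RefSeq's, for chr1:145996580-145996829 of GRCh38.p14, 5′ to 3′ on the gene's strand, and capitals mark the match, 88 to 72 bases before the start.
TXNIP: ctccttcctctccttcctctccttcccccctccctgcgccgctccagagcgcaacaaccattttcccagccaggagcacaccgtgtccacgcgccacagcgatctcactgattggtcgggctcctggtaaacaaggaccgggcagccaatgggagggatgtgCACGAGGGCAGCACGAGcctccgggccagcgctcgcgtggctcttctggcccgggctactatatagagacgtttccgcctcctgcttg
The ARRDC4 window held no match to these letters. It did hold the E-box CACGTG, a motif fixed in the plan, which was in 1233 of the 11105 promoters (11.1%). RefSeq's table had an entry for 23 of the 29 called genes, under 80%, so a count of motifs over the called genes is void.

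Genes of the amino acid response were higher together. Of the 32 members tested of the ATF4 list, 14 were called higher and 0 lower, and 31 had both 2DG libraries above both controls, against 17.2% of all genes tested (2883 of 16714). Earlier results of these data were known when the list was written. The median log2 difference was 1.49, and it was 0.97 for replicate 1 and 2.01 for replicate 2, each over the mean of the controls. INHBE, the beta subunit of activin E and a known stress target, had 608 and 1783 normalised reads with 2DG, against 45 and 47.1 without it (log2 4.47, SE 0.40, adjusted p = 8.1e-06). SLC7A11, the cystine importer, had 1535 and 5160.3 with 2DG, against 283 and 478 (log2 2.93, SE 0.44, adjusted p = 0.006). In both cases replicate 1 of E7+ActivinA+2DG lay between the controls and replicate 2.

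DDIT3, the transcription factor also called CHOP, had 153 and 379 normalised reads with 2DG, against 48.8 and 19.8 without it (log2 2.91, SE 0.58, adjusted p = 0.047). Of the 16 fits that left out 1 library, 7 kept this call. CUZD1 and ASS1 were kept in 3 and AKNA, SESN2, IFRD1 and MTHFD2 in 4, while 12 of the 29 genes were kept in all 16. DDIT4, an inhibitor of mTORC1, had 445 and 1237 with 2DG, against 138 and 74.4 (log2 2.86, adjusted p = 0.009). CHAC1, which degrades glutathione, had 585 and 1605 with 2DG, against 179 and 143 (log2 2.59, adjusted p = 0.0065). ATF5, a relative of ATF4, had 511 and 1496, against 186 and 151 without 2DG (log2 2.38, adjusted p = 0.012). For each of these genes both 2DG libraries were above both controls, and replicate 2 was the higher of the 2DG pair.

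Other members of the list were also called. ASNS, asparagine synthetase, had 6365 and 12590.1 normalised reads with 2DG, against 3546 and 2902 without it (log2 1.48, SE 0.25, adjusted p = 0.012). STC2, a secreted glycoprotein induced by ER stress, had 1659 and 4151 with 2DG, against 482 and 608 (log2 2.27, SE 0.33, adjusted p = 0.0045). Others called were VLDLR (log2 2.13), the mitochondrial PEP carboxykinase PCK2 (1.77), the mTORC1 regulator SESN2 (1.71), the leucine transporter SLC7A5 (1.49), the serine enzyme PSAT1 (1.35) and the folate enzyme MTHFD2 (1.11). ATF4 itself was the member whose libraries overlapped, with 8957 and 9783 with 2DG, against 9722 and 7091. TRIB3, a pseudokinase that binds ATF4, had 372 and 1137 with 2DG, against 181 and 149, and missed the threshold (log2 1.98, adjusted p = 0.066). GDF15, a secreted stress cytokine, had 70.7 and 201 with 2DG, against 30 and 15.1 (adjusted p = 0.23). The libraries of both did not overlap.

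The promoters of ASNS and CHAC1 are printed because each holds TGATGNAA, the core of the C/EBP-ATF composite element that ATF4 binds with a C/EBP partner. The longer form TGATGNAAT, the one fixed in the plan, was in 70 of the 11105 promoters (0.63%). Neither printed promoter holds it. It was in 0 of the 23 called genes with an entry, a count that is void as a measure of the called genes. The shorter form, added after the values were seen, was in 264 of 11105 (2.38%). Both strands were searched over 250 bases, and capitals mark the match. RefSeq's windows are chr7:97872409-97872658 on the minus strand for ASNS, with the match 68 to 61 bases before the start, and chr15:40953221-40953470 on the plus strand for CHAC1, with the match on the other strand at 209 to 202 bases (GRCh38.p14).
ASNS: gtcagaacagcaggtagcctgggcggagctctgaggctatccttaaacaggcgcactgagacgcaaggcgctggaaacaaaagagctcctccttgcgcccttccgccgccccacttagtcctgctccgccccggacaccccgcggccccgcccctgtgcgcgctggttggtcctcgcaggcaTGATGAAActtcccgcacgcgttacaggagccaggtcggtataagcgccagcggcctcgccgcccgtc
CHAC1: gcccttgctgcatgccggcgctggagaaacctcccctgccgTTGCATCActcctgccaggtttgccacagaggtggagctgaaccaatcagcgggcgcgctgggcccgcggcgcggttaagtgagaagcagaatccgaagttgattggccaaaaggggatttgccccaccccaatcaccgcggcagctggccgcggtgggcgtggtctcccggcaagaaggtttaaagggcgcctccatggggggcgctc
A match is a description of these letters and not a measured site.

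Other called genes lie outside the ATF4 and glucose-sensing lists. TAC1, the precursor of substance P and other tachykinins, had 69.7 and 362 normalised reads with 2DG, against 7.5 and 5.65 without it (log2 4.41, SE 0.68, adjusted p = 0.0065). FAM129A, a stress-induced protein also called NIBAN1, had 389 and 1358 with 2DG, against 59.1 and 90.4 (log2 3.30, SE 0.45, adjusted p = 0.0025). Both had the gap between the 2DG replicates that the amino acid genes had. HMOX1, heme oxygenase, had 255 and 661 with 2DG, against 92.9 and 86.6 (log2 2.18, adjusted p = 0.032). VEGFA, the angiogenic growth factor, had 922 and 2006, against 324 and 444 without 2DG (log2 1.84, adjusted p = 0.009). HRK, a BH3-only protein that promotes cell death, had 242 and 484, against 82.6 and 90.4 without 2DG (log2 1.97, adjusted p = 0.012). HMOX1 and SLC7A11 were the members called of 14 tested on the NRF2 and glutathione list, VEGFA that of 15 on the hypoxia list, and HRK that of 12 on the BCL2 family list. Of all genes tested 0.174% were called higher. The median log2 differences of these lists were 0.36, -0.02 and -0.09. Both 2DG libraries lay above both controls for 7, 2 and 4 members, against 17.2% of all genes tested. They lay below both controls for 0, 4 and 0 members, against 16.6% of all genes tested.

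The other called genes were LIMCH1 (log2 3.53), MMP24 (2.12), CUZD1 (2.12), ADM2 (2.02), AKNA (1.84), IFRD1 (1.22), ASS1 (1.14) and the transcript AC007326.5 (2.38). LIMCH1 had the lowest counts, with 22.9 and 50.5 normalised reads with 2DG, against 0.938 and 3.77 without it, so its fold change depends on the value added before the logarithm.

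Replicate 1 of E7+ActivinA+2DG had smaller differences than replicate 2 for the called genes. Taken as the distance from the mean of the E7+ActivinA libraries, its rise was 17.8 to 50.5% of that of replicate 2 over the 29 called genes, with a median of 32.4%. TXNIP was at 50.5% and TAC1 at 17.8%. Replicate 1 lay below both libraries of E7+2DG for 29 of the 29 genes, against 39.2% of all genes tested. Replicate 2 lay below both for 10 and above both for 14, against 37.4% and 35.4% of all genes tested. Replicate 1 also lay below both libraries of E7+TGFb+2DG for 29 of 29, against 41.5% of all genes tested. Replicate 1 lay below both libraries of E7+NODAL+2DG for 25 and above both for 3, while replicate 2 lay above both for 25. For all genes tested these 3 shares were 41.9%, 41.8% and 41.8%. TXNIP, at 1060.1 and 2034 normalised reads in E7+ActivinA+2DG, had 1610.2 and 1720.3 in E7+2DG. Without 2DG, both E7+ActivinA libraries lay below both E7 libraries for 20 of the 29 genes, against 21.4% of all genes tested. For E7+TGFb and E7+NODAL these counts were 20 and 19, against 22.1% and 23.9% of all genes tested. Low values in E7+ActivinA favoured a call, so these counts are partly fixed by the selection and are only a description.

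**Figure D2:**
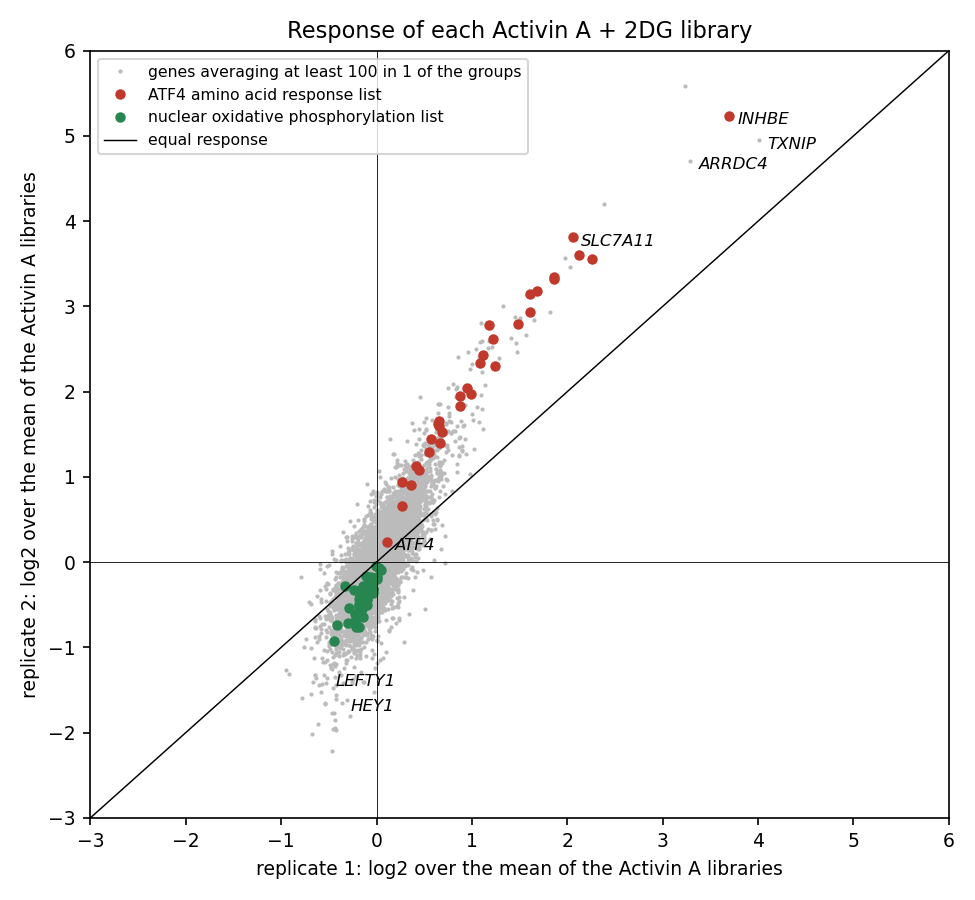
Log2 difference from the mean of the Activin A libraries in replicate 1 (horizontal axis) and replicate 2 (vertical axis) of Activin A with 2DG, for genes averaging at least 100 in either group. The ATF4 list (red) lies above the line of equal response, with medians of 0.97 in replicate 1 and 2.01 in replicate 2, and the nuclear oxidative phosphorylation list (green) lies below 0, with medians of -0.15 and -0.40.

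Each 2DG library was set against each control in turn. Among the 10682 genes averaging at least 100, replicate 1 of E7+ActivinA+2DG was at least 1 log2 above replicate 1 of E7+ActivinA for 236 genes and at least 1 below it for 8. Against replicate 2 of E7+ActivinA these counts were 33 and 1. Replicate 2 of E7+ActivinA+2DG gave 737 higher and 275 lower against replicate 1 of E7+ActivinA, and 171 and 73 against replicate 2. The number of genes past this fold thus depended on which libraries were paired. All 4 ratios were at least 1 for 106 genes (0.634%) and at most -1 for 30 (0.179%). Of the 106, 35 averaged at least 100 in the 2DG group, and of the 30 none averaged 100 in either group.

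Some of the 35 missed the threshold and were chosen here after their values were seen. ANXA1, a phospholipid-binding annexin, had 212 and 644 normalised reads with 2DG, against 53.5 and 52.7 (log2 2.78, adjusted p = 0.06). IGFBP5, which binds insulin-like growth factors, had 67.8 and 185 with 2DG, against 14.1 and 17.9 (log2 2.74, adjusted p = 0.11). GCNT4, a glycosyltransferase, had 138 and 443, against 56.3 and 52.7 without 2DG (log2 2.16, adjusted p = 0.06). The libraries of each were apart by at least 1 log2, and IGFBP5 and GCNT4 were not called for 2DG in E7. Neither was called for a different response from E7. That difference was 2.64 for IGFBP5 (limma adjusted p = 0.94) and 2.18 for GCNT4 (limma adjusted p = 0.56).

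The replicate difference in E7+ActivinA followed transcript length. Its Spearman's rho with exon length was 0.46 across 16338 genes, and that in E7+ActivinA+2DG was 0.20. In the other groups this rho ran from -0.35 in E7 to 0.21 in E7+NODAL, and it was -0.21 in E7+2DG. The 2DG difference itself had a rho of 0.32 with length in Activin A medium and of 0.31 in E7. Called genes had a median exon length of 4189 bases, and all genes tested 4574. The part of length in the results was not tested. PWAR5, a transcript of the Prader-Willi region, had the largest gap between controls among genes averaging at least 500, with 116 and 1624 normalised reads in E7+ActivinA, and 738 and 1464 in E7+ActivinA+2DG. CRYBG3, AHNAK, HMCN1 and FAT3 were the next, each at least 1.87 log2 higher in replicate 2 of E7+ActivinA. In E7+ActivinA+2DG the genes most above replicate 1 in replicate 2 were FAM129A (log2 1.80), SLC7A11 (1.75), TRIB3 (1.61), INHBE (1.55) and ATF5 (1.55). Those most below were GUCY1B3 (-1.50), CCNG2 (-1.30), the NOTCH target HEY1 (-1.28), NTS (-1.11) and CAVIN3 (-1.11).

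No gene of the lists for Activin and NODAL targets was called for 2DG in Activin A medium. LEFTY1, a secreted inhibitor of NODAL and a SMAD2/3 target, had 2643 and 1484 normalised reads in E7+ActivinA+2DG, against 4829 and 2993 in E7+ActivinA (log2 -0.94, SE 0.34, adjusted p = 0.56). In E7 the values of LEFTY1 were 20.9 and 30.4 with 2DG, against 463 and 613 without it (log2 -4.35). The 2DG response of LEFTY1 in Activin A medium less that in E7 was 3.41 (SE 0.39, limma adjusted p = 0.00084). This was the 1 gene called for that difference (0.00598% of genes tested), and it was also called in each of the 16 fits that left out a library. LEFTY1 and LEFTY2 are near-identical, so their values depend on how shared reads were assigned.

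LEFTY2 had 1623 and 921 normalised reads with 2DG in Activin A medium, against 3253 and 2381 without it (log2 -1.19, adjusted p = 0.79). NODAL, the ligand itself, had 2049 and 1885 with 2DG, against 2857 and 1839 (adjusted p = 0.94). MIXL1, a mesendoderm transcription factor, had 1299 and 832 with 2DG, against 1513 and 1336 (adjusted p = 0.86). EOMES, a T-box factor of the same lineage, had 75.4 and 30.1 with 2DG, against 108 and 123 (adjusted p = 0.83). The libraries were apart for LEFTY2, MIXL1 and EOMES and overlapped for NODAL, and none was called.

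Of the 22 TGFb, Activin and Nodal targets tested, 0 were called, 4 were apart higher and 6 were apart lower, against 17.2% and 16.6% of all genes tested. Their median log2 difference was 0. On the list of SMAD2/3 receptors and transducers INHBE was the 1 call of 16. The receptor ACVR1B had 646 and 752 with 2DG, against 435 and 585, and the SMAD2 transducer had 1811 and 1792, against 1744 and 1782. On the mesendoderm list 0 of 12 were called and 5 were apart lower, with medians of -0.10 in replicate 1 and -0.93 in replicate 2. The BMP list had 0 of 10 called and 4 apart lower, among them ID3, at 632 and 249 with 2DG, against 1322 and 779 (log2 -1.35, adjusted p = 0.22).

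**Figure D3:**
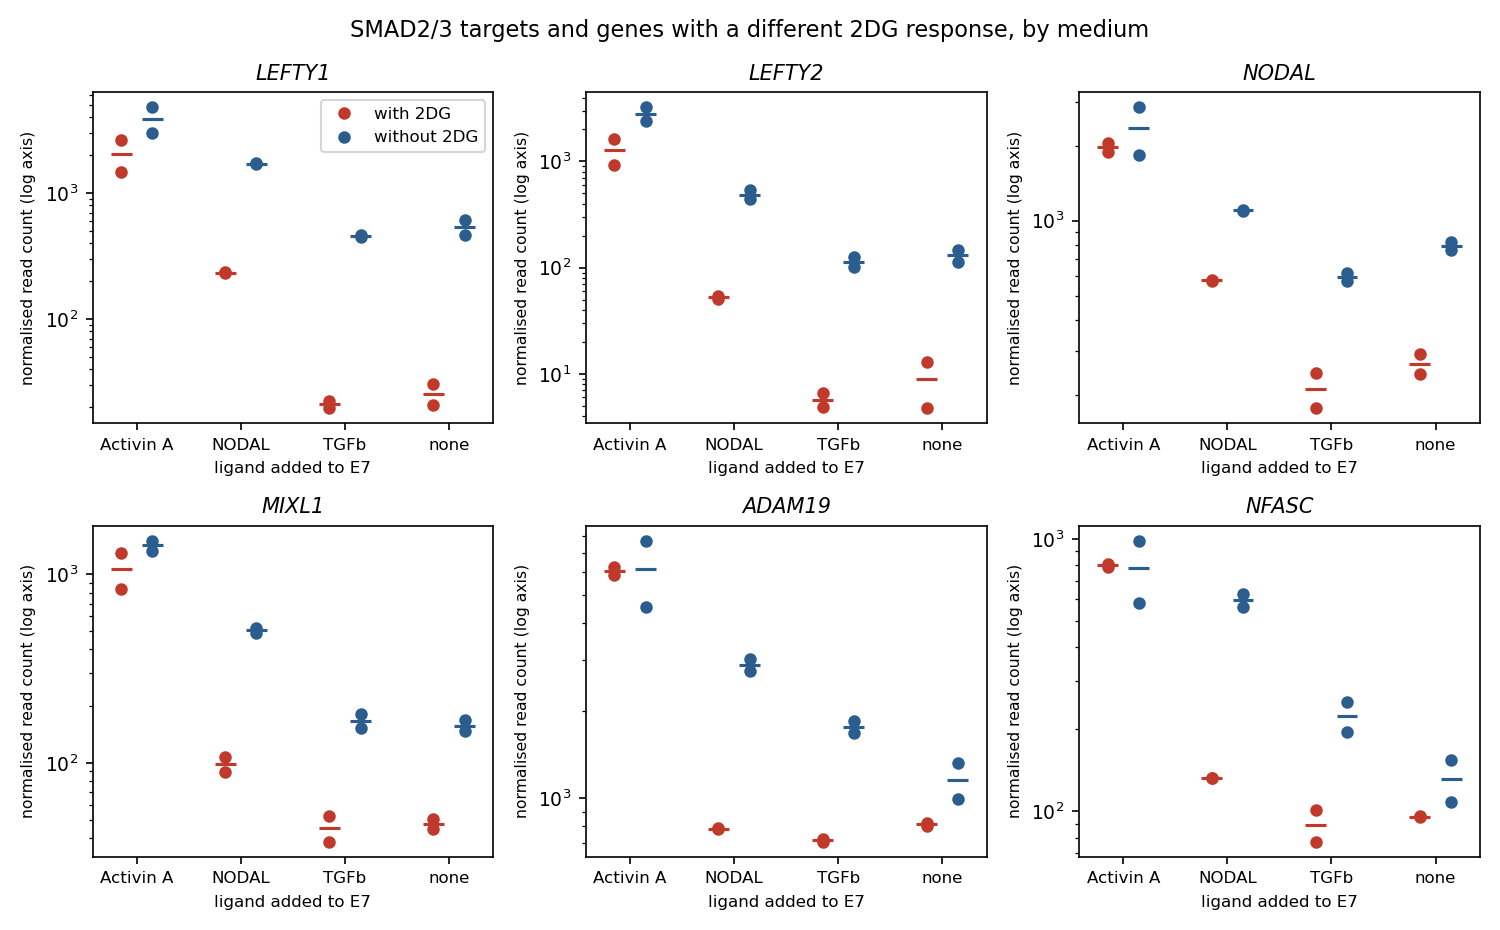
Normalised read count on a log axis for 6 genes in the 4 media, with (red) and without (blue) 2DG. Points are libraries and bars are means of 2. LEFTY1 had means of 2063 and 3911 with and without 2DG in Activin A medium, a narrower gap than in the other 3 media, and ADAM19 and NFASC had overlapping red and blue points in Activin A medium alone.

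The response was also set against that in NODAL medium, in which the ligand is at the same dose of 100 ng/mL. The difference was called for 4 genes (0.0239% of genes tested), and it was positive for all 4. Their log2 responses ran from -0.25 to 0.08 in Activin A medium and from -2.16 to -1.01 in NODAL medium. A fall with 2DG in NODAL medium was thus smaller or absent in Activin A medium. ADAM19, a membrane metalloprotease, had 6265 and 5854 normalised reads in E7+ActivinA+2DG, against 4571 and 7720.2 in E7+ActivinA. It had 782 and 788 in E7+NODAL+2DG, against 2749 and 3023 in E7+NODAL. The difference in response was 1.90 (SE 0.23, adjusted p = 0.0014), with 0.03 in Activin A medium and -1.88 in NODAL medium. ADAM19 remained called with each of the added sets of weights, as LEFTY1 did.

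NFASC, a neuronal cell adhesion molecule, had 791 and 808 normalised reads in E7+ActivinA+2DG, against 582 and 986 in E7+ActivinA, and 132 in both E7+NODAL+2DG libraries, against 563 and 625 in E7+NODAL (difference 2.24, adjusted p = 0.033). FZD5, a Wnt receptor, had 4725 and 4574 in E7+ActivinA+2DG, against 4069 and 5277, and 1972 and 1916 in E7+NODAL+2DG, against 3750.1 and 4098 (difference 1.02, adjusted p = 0.027). ERVH48-1, an endogenous retroviral gene whose product is the envelope protein suppressyn, had 1690.4 and 1611 in E7+ActivinA+2DG, against 1908 and 2022, and 923 and 872 in E7+NODAL+2DG, against 2825 and 2622 (difference 1.35, adjusted p = 0.0032). The calls for NFASC and FZD5 were lost with all 3 added sets of weights, and that for ERVH48-1 with 2 of them. Leaving out replicate 2 of E7+ActivinA gave 654 calls for this difference, and leaving out replicate 1 of E7+ActivinA gave 1, so the number rests on which control library is used.

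Most genes called for 2DG without a ligand differed in the same direction with Activin A, with smaller medians. In E7, 2DG raised 3097 genes (18.5%) and lowered 2999 (17.9%), with no library in common with the Activin A comparison. Of the 3097, 1312 (42.4%) had both 2DG libraries above both controls in Activin A medium and 29 (0.936%) had both below. Of the 2999, 1147 (38.2%) were apart lower and 36 (1.2%) apart higher. The raised genes had median log2 differences of 0.23 in replicate 1 of E7+ActivinA+2DG and 0.47 in replicate 2, and 0.70 and 0.64 in replicates 1 and 2 of E7+2DG. The E7 values chose the genes, so the sizes are given as a description. The lowered genes had medians of -0.14 and -0.35 in Activin A medium. The smaller medians were not particular to Activin A: by the fitted values the raised genes had a median of 0.35 in Activin A medium, 0.25 in TGFb medium and 0.10 in NODAL medium. TGFb was at a lower dose than Activin A and NODAL, so TGFb medium is not matched to them by dose. All 29 genes called in Activin A medium were called higher in E7, in NODAL medium (13.5% of genes tested) and in TGFb medium (15.7%). None of the 29 was called for a different response from E7. Their differences from E7 ran from -1.31 for ATF5 (SE 0.46) to 1.11 for LIMCH1 (SE 0.71), so a missed call does not show an equal response.

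A small number went against their direction in E7, chosen here after their values were seen. PLK2, a polo-like kinase, had 1034 and 1843 normalised reads with 2DG in Activin A medium, against 938 and 919.9 (log2 0.57, adjusted p = 0.81), and a log2 of -0.81 in E7. CAV1, the main protein of caveolae, had 1678 and 1998 with 2DG, against 1619 and 1501 (log2 0.23, adjusted p = 0.86), and -0.96 in E7. Neither was called for the difference.

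Chaperones and sensors of ER stress had smaller differences than the ATF4 genes, and none was called. Of the 29 members tested of the ER unfolded protein response list, 0 were called, 16 were apart higher and 0 apart lower, against 17.2% and 16.6% of all genes, and the median was 0.24. HSPA5, the main ER chaperone, had 22290.4 and 25402 normalised reads with 2DG, against 20224 and 17935 without it (log2 0.32, adjusted p = 0.68). HERPUD1, of ER-associated degradation, had 742 and 1252 with 2DG, against 507 and 446 (log2 1.02, adjusted p = 0.11). XBP1, a transcription factor of the pathway, had 3819 and 4708, against 3421 and 2694 without 2DG (adjusted p = 0.49). The libraries of all 3 were apart. The 20 cytosolic aminoacyl-tRNA synthetases had 0 called, 12 apart higher and 3 apart lower. Among them WARS, for tryptophan, had 2517 and 4763, against 1564 and 1669 without 2DG (log2 1.10, adjusted p = 0.07), and RARS, for arginine, had 2635 and 2409, against 3231 and 2772.

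Genes of glucose use had no call. Of 24 glycolysis genes, 7 were apart higher and 3 apart lower, and of 34 genes of hexosamine synthesis and N-glycosylation, 12 and 4, against 17.2% and 16.6% of all genes tested. SLC2A1, the glucose transporter GLUT1, had 2971 and 4754 normalised reads with 2DG, against 2022 and 1748 (log2 1.00, adjusted p = 0.089). The libraries of SLC2A1 were apart. HK2, a hexokinase, had 1563 and 1536 with 2DG, against 1274 and 1648 (adjusted p = 0.97). LDHA, lactate dehydrogenase A, had 10179 and 7789.8 with 2DG, against 12850.4 and 10086 (adjusted p = 0.82). The libraries overlapped for HK2 and LDHA. GFPT1, which starts hexosamine synthesis, had 3009 and 5433 with 2DG, against 2056 and 2514 (log2 0.83, adjusted p = 0.24).

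The lists for oxidative phosphorylation, ribosomal proteins, S phase, the TCA cycle, cholesterol and heat shock had negative medians and no call. Of all genes tested, 17.2% were apart higher, 16.6% were apart lower and 17.9% were called lower in E7. The 47 nuclear genes of oxidative phosphorylation had a median log2 of -0.28 and 4 apart lower, while 36 of them were called lower in E7. Replicate 1 of E7+ActivinA lay 0.30 above the mean of the E7+ActivinA pair for the median member, against -0.28 for the difference itself. The 36 cytosolic ribosomal proteins had a median of -0.19 with 0 apart, and that replicate lay 0.32 above the mean of its pair. S phase genes had a median of -0.27 and 13 of 27 apart lower, among them PCNA, the sliding clamp of DNA replication, with 4536 and 3114 with 2DG, against 6730.1 and 4601 (log2 -0.57, adjusted p = 0.56). CCNE1, cyclin E1, had 826 and 628, against 1097 and 960.4 without 2DG (adjusted p = 0.5). The 29 genes of the TCA cycle and pyruvate entry had 10 apart lower and 3 apart higher. Cholesterol genes had 6 of 23 apart lower and 3 higher, and heat shock genes had 7 of 18 apart lower and 1 higher.

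**Figure D4:**
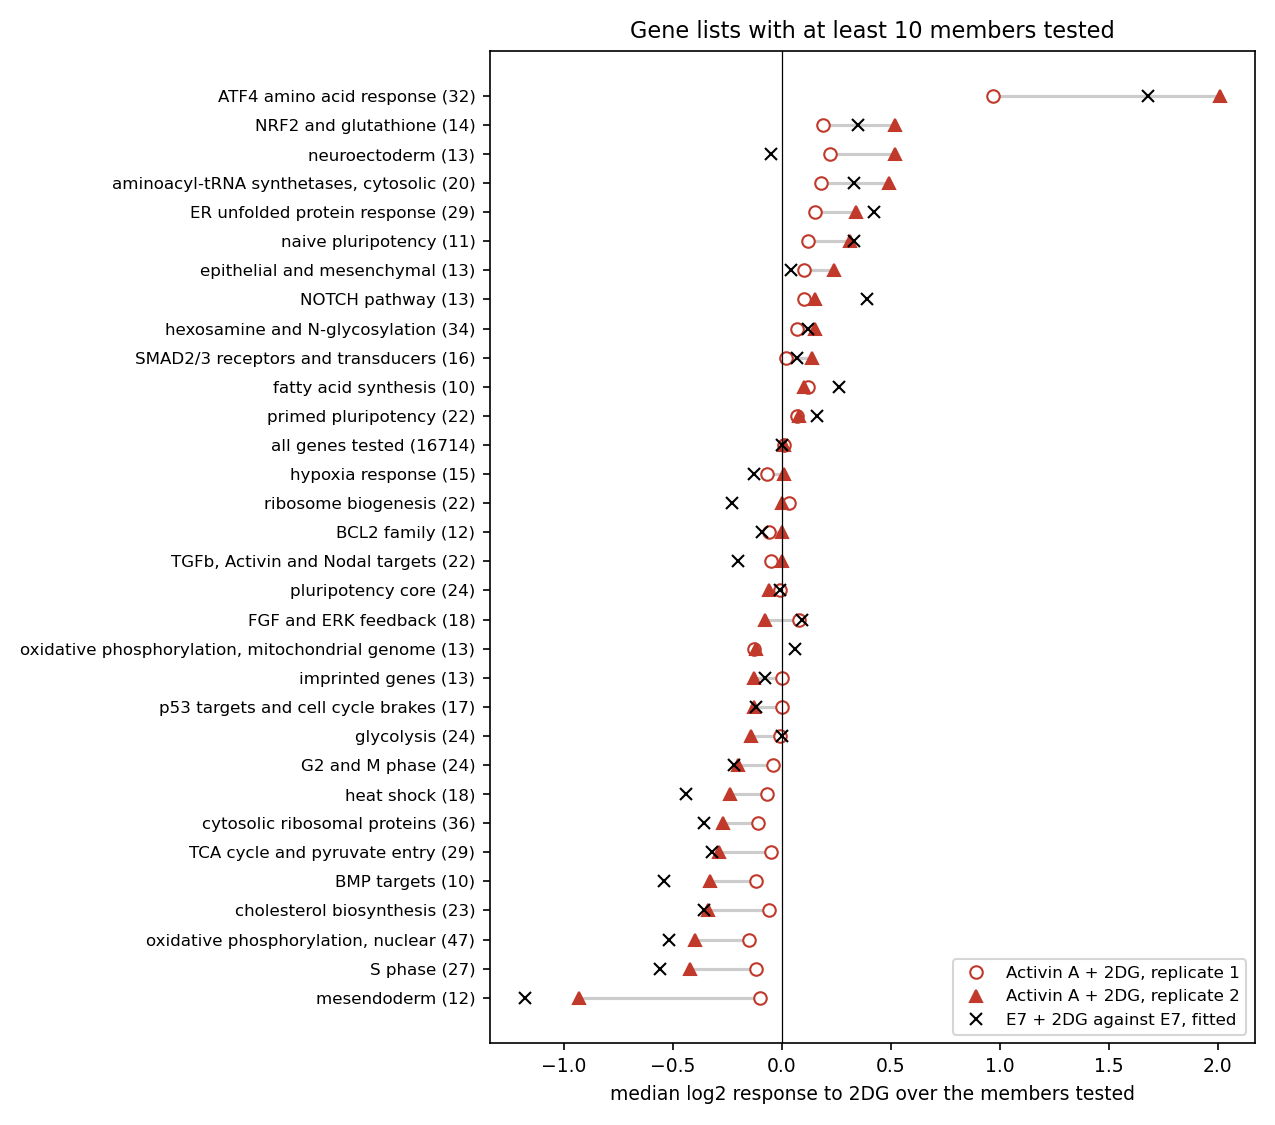
Median log2 response to 2DG over the members tested of each gene list with at least 10, for replicate 1 (circles) and replicate 2 (triangles) of Activin A with 2DG over the mean of the Activin A libraries, and for the fit in E7 (crosses). The ATF4 list is farthest right, at 0.97 and 2.01 in the Activin A libraries, and the mesendoderm list is farthest left in replicate 2, at -0.93, with -0.10 in replicate 1.

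None of the 24 core pluripotency genes tested was called by limma, and SLC7A11 was the 1 call on the primed pluripotency list, of 22 tested. POU5F1 (OCT4) had 46630.3 and 37695 normalised reads with 2DG, against 63985 and 44831 (adjusted p = 0.82). SOX2 had 3935 and 4133 with 2DG, against 4013 and 4051 (adjusted p = 1), and NANOG had 5079.8 and 4199.6, against 6073 and 4979 without 2DG (adjusted p = 0.82). The libraries of all 3 overlapped between the groups. OTX2, a factor of primed pluripotent and anterior neural cells, had 248 and 287 with 2DG, against 231 and 195 (adjusted p = 0.85). Of the 24, 4 were apart higher and 2 lower, no larger a share than the 17.2% and 16.6% of all genes tested.

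The neuroectoderm list had 0 of 13 called, 8 apart higher and 4 apart lower, against 17.2% and 16.6% of all genes tested. INSM1, a zinc finger factor of neuroendocrine precursors, had 37.2 and 132 normalised reads with 2DG, against 14.1 and 9.42 (log2 2.51, adjusted p = 0.059), and MAP2, a neuronal microtubule protein, had 42 and 145, against 10.3 and 18.8 without 2DG (log2 2.40, adjusted p = 0.11). PAX6 had 18.1 and 39.8 with 2DG, against 10.3 and 16 (adjusted p = 0.92), while SOX1, an early neural factor, had 40.1 and 16.1, against 51.6 and 49.9. The members apart from the controls therefore lay in both directions.

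Markers of other cells were counted in the same libraries, and their part in the results was not tested. The 6 fibroblast and stromal markers tested of 11 summed to 2758 and 4438 normalised reads with 2DG, against 1895 and 1915 without it. TAGLN, an actin-binding protein, had 1299.8 and 2800.4 with 2DG, against 839 and 637 (adjusted p = 0.093), and COL6A3 had 219 and 594, against 49.7 and 127. The other 4 were not apart higher: PDGFRA, with 109.8 and 92.4, against 119 and 119.6, was apart lower, and the libraries of COL1A1, COL1A2 and PDGFRB overlapped. The median log2 difference of the 6 was 0.13. The 5 trophoblast markers tested of 12 summed to 11779 and 9652, against 16007 and 11336, and the 5 endoderm markers tested of 9 to 271 and 138, against 285 and 219. The 8 histone genes tested whose transcripts mostly lack a poly(A) tail, a sign of RNA selection, summed to 342 and 319 with 2DG, against 562 and 376. The sum of 562 was that of replicate 1 of E7+ActivinA. Of the 8, 4 were apart lower, against 16.6% of all genes tested.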

How the data were processed

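Per the submitters' processing notes, the authors' tools were Trimmomatic 0.36, STAR, featureCounts 1.5.3 and DESeq2 1.26.0, with build hg38; strand and annotation release are not given in the sources used here. The deposited signal values are read counts divided by a size factor: multiplied back, 100% came out as whole reads within 1e-06. Genes with at least 10 in at least 2 libraries were tested (16714 of 17738). The test was limma 3.58.1 in R 4.3.3 with trend on log2(value + 1), 8 group means over 16 libraries, 8 residual degrees of freedom, and a weight for each group estimated over all genes (0.543 for E7+ActivinA+2DG, 0.22 for E7+ActivinA, 0.762 to 1.91 for the others). Benjamini-Hochberg adjusted p under 0.05 was a call, and "apart" means that the libraries of the 2 groups did not overlap. Folds on this scale understate changes of low genes. On simulated data these weights gave more false calls than the threshold names, whereas weights from genes averaging at least 500 did not; the weights from genes averaging at least 100, 500 and 1000 were therefore added after the data and the counts were seen. edgeR 4.0.16 and DESeq2 1.42.0 were run on the recovered whole reads as alternatives.

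The members and gene lists were chosen with earlier results of these data known. Genes named by rule were the 12 called with the largest change and a group average of at least 100, up to 4 called members of each list, a set list, the called interactions, and the 5 largest replicate differences in each direction among genes averaging at least 500. Other genes named were chosen after their values were seen. Exon lengths and positions are from GENCODE 29, which matched 17321 of 17738 symbols (97.6%). Results for some genes are not reported here.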

Additional observations from a re-analysis of the deposited data

Results flagged for a closer look

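5 genes had a 2DG response in Activin A medium that differed from that in another medium, by the limma test of the difference itself. LEFTY1 differed from E7 by 3.41 on the log2 scale (SE 0.39, adjusted p = 0.00084). NFASC differed from NODAL medium by 2.24 (SE 0.37, adjusted p = 0.033), ADAM19 by 1.90 (SE 0.23, adjusted p = 0.0014), ERVH48-1 by 1.35 (SE 0.18, adjusted p = 0.0032) and FZD5 by 1.02 (SE 0.16, adjusted p = 0.027). All 5 differences were positive, and all 5 genes were lower with 2DG in the other medium, with log2 from -4.35 (LEFTY1) to -1.01 (FZD5). In E7+ActivinA the 2 controls of NFASC, ADAM19 and FZD5 lay on either side of both E7+ActivinA+2DG libraries. What lies behind these differences was not tested.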

How the results depend on the processing

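The number of genes called for 2DG in Activin A medium (29) was 24 to 33 under 3 other scalings (TMM, equal totals, quantiles), pseudocounts of 0.5 and 8, no filter and a minimum fold. It was 19 with a mean of at least 50, 284 with equal weights, 3 with only the 4 libraries, 296 with edgeR and 602 with DESeq2. Weights from genes averaging at least 100, 500 and 1000 gave 17, 6 and 6. Leaving out 1 library gave 12 to 297 calls: 297 without E7+ActivinA+2DG replicate 1, 16 without its replicate 2, 12 without E7+ActivinA replicate 1, 215 without its replicate 2, 46 and 44 without E7 replicates 1 and 2, and 18 or 19 without a library of E7+TGFb+2DG or E7+NODAL+2DG. Of the 29, 12 were called in all 16 such fits and 23 in all 3 scalings.

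The difference from E7 (1 call) gave 7 with equal weights, 0 with only its libraries (650 at an unadjusted p under 0.05 by limma), 7 with edgeR and 44 with DESeq2 on all libraries, and 1 to 9 with 1 library left out: 6 and 9 without E7+ActivinA+2DG replicates 1 and 2, and 2 without E7+2DG replicate 2. The difference from NODAL medium (4 calls) gave 12 with TMM, 13 with equal totals, 15 with quantiles, 13 with pseudocount 8, 12 with no filter, 2 with a mean of at least 50, 18 with equal weights, 0 with only its libraries (1032 at an unadjusted p under 0.05), 22 with edgeR, 80 with DESeq2, and 2, 1 and 1 with weights from genes averaging at least 100, 500 and 1000. Leaving out 1 library gave 1 to 654: 43 and 11 without E7+ActivinA+2DG replicates 1 and 2, 1 and 654 without those of E7+ActivinA, 18 without either E7 library, 6 without either E7+2DG library, and 2 without E7+NODAL replicate 2 or either E7+NODAL+2DG library.

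Same-numbered libraries were not paired by the labels, and their replicate differences had r of 0.24, 0.13, 0.01 and 0 across genes in Activin A, E7, TGFb and NODAL media, so the numbers were not taken as pairs. A replicate block gave 239 calls, 16 for the difference from E7 and 122 for that from NODAL medium.

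With 1 library left out the sign changed for NODAL (-0.54 to 0.10), HK2 (-0.09 to 0.28) and ATF4 (-0.05 to 0.40), and for the difference from E7 of TXNIP (-0.63 to 0.31), INHBE (-0.13 to 1.42) and ARRDC4 (-0.49 to 0.92). In a window of 100 bases in place of 250, the E-box CACGTG was in 2 promoters rather than 4 and TGATGNAA in 3 rather than 6, of the 58 with an entry among the 106 genes with all 4 ratios at least 1. Under 80% of those genes have an entry, so these motif counts are void as a measure of the set. The cause of these shifts was not tested. With 2 libraries a group and unequal spread, a gene that missed the threshold may still differ.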
